A study of Mus musculus with 12 samples.

Results

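The genes described here are 35 stellate cell and extracellular matrix genes, picked by name: collagens, cytoskeletal markers of contractile stellate cells, growth factors and receptors, proteoglycans, crosslinking enzymes, and metalloproteinases with their inhibitors. They were measured in mouse livers on 12 arrays of 2 colours in 4 groups of 3. The groups were Cyp1b1 null mice on a high-fat diet, wild-type C57BL6/J mice on a high-fat diet, mice labelled Cyp1b1 null on a low-fat diet, and wild-type mice on a low-fat diet. All mice were male, were moved at weaning (3 weeks) to a diet with 60% or 10% of fat, and were 14 weeks old when sampled. Per the labels, each array carries 3 pooled samples from liver hepatocytes, and nothing says whether replicates came from separate animals, so p-values measure only the spread between these arrays. The Cy3 channel held the sample and the Cy5 channel one common reference pool, made from livers of wild-type mice fed low fat, and dyes were not swapped. Every value below is a log2 ratio of sample over that pool unless called an intensity, so 0 means as bright as the pool.

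Of the 35 genes, 31 were measured, among 14911 measured genes on the array, where measured means that a probe passed the scanner software's mark for signal over background in every array of some group. The other 4 were Col6a3, above background on 0 arrays, Lox on 1 array, Mmp13 on 2 arrays, and Thbs1 on 5 arrays by its best probe. For those 4 no level is given. Col6a3 encodes the third chain of type VI collagen, Lox crosslinks collagen, Mmp13 is a collagenase of rodents, and Thbs1 activates latent TGF-beta. Among the measured genes, Des was above background on 9 arrays, Col5a2, Col6a2 and Bgn on 11, and the rest on all 12. No probe of a measured member had most of its spots marked saturated in the sample channel on any array. Single spots and the reference channel were not checked for saturation.

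Hepatic stellate cells lie between hepatocytes and the sinusoidal endothelium. At rest they store vitamin A and express desmin, and on injury they turn into contractile cells that make fibrillar collagen, smooth muscle actin and inhibitors of matrix breakdown. TGF-beta drives matrix production in these cells and PDGF drives their division, and portal fibroblasts, smooth muscle and endothelium add to the same matrix. Cyp1b1, a cytochrome P450 that oxidises retinoids, steroids and polycyclic hydrocarbons, is known to be expressed in stellate cells.

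By that mark 18374 to 23439 probes per array had sample signal, and wild-type low-fat array 1 had the highest number. Per the labels, 1 of 2 labelling kits was used depending on the amount of RNA, and which array got which kit is not stated, so the part of the kit in any array's values was not tested. The arrays were scanned in 3 runs, and the third held 1 wild-type array of each diet and no null array. When each array was taken as its deviation from its group mean, pairs from other groups correlated at a median of 0.380 where they shared a scan and -0.180 where they did not. A probe of Cyp1b1 lay between 0.65 and 1.68 on the arrays labelled null, against -1.11 to 0.16 on wild-type arrays; the files do not say whether it lies in the deleted part, so it checks nothing about the labels. Of 13 hepatocyte marker genes 11 were measured, and so were 13 of 14 stellate cell, 14 of 14 Kupffer cell and 15 of 15 endothelial markers. In bulk RNA, fewer cells of a type and less RNA per cell cannot be told apart.

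One array stood apart in these genes. On wild-type low-fat array 1, 26 of the 31 members had their highest value of all 12 arrays, against 17.4% of all genes. The median of the members was -0.19, -1.10 and -0.50 on null high-fat arrays, and wild-type high-fat arrays had medians of -0.59, -0.59 and -0.53. Null low-fat arrays had medians of -1.02, -0.55 and -0.57, against 0.59, -0.68 and -0.76 on wild-type low-fat arrays. The median over all genes stayed between -0.03 and 0.01 on each array. For 20 members (4.82% of all genes) that 1 array lay more than 1 above the mean of the other 11. It was the highest of its own group for 28 members (38.5% of all genes). The members that did not peak there were Col18a1, Acta2, Ctgf, Fn1 and Timp1.

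**Figure D1:**
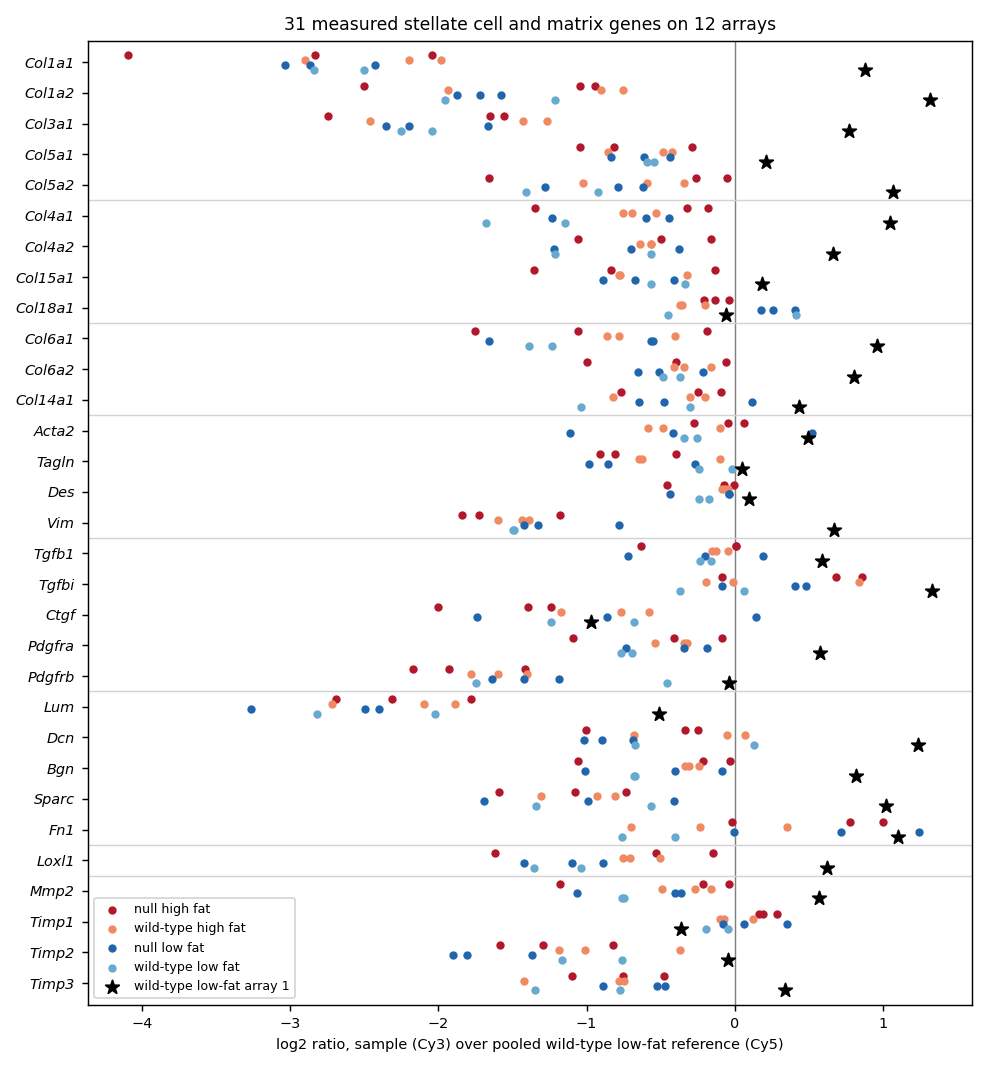
Log2 ratio of sample over the pooled wild-type low-fat reference (horizontal axis) of each of the 31 measured members (rows, grouped by role) on each of 12 arrays; circles are coloured by group and the star is wild-type low-fat array 1. The star lies right of every circle in 26 rows, and on the other 11 arrays most collagens lie left of 0.

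The same array was highest for 26 members with Agilent's own processed signals (15.9% of all genes). It was highest for 28 without background correction (29.3%), for 24 with median centring in place of loess (18.8%) and for 27 in the sample channel alone (18.9%). That channel was itself rebuilt from the loess ratios. The position of the other arrays relative to the pool was not as stable. After loess, 22 of 31 members lay below the pool on each of the other 11 arrays (11.7% of all genes), and 23 did so with Agilent's signals (11.2%). With plain median centring the number was 3 (3.49%), namely Col1a1, Col3a1 and Lum, and without background correction it was 4 (3.51%), the same genes and Pdgfrb. For 9 members the mean of the other 11 arrays was below -1 after loess, against 2.46% of all genes: Col1a1, Col1a2, Col3a1, Vim, Ctgf, Pdgfrb, Lum, Sparc and Timp2. Within groups, 26 members lay below the pool on all 3 null high-fat arrays (30.6% of all genes) and 27 on all 3 wild-type high-fat arrays (28.4%). The count was 23 on null low-fat arrays (26.6%) and 5 on wild-type low-fat arrays (16.1%). All samples carried the same dye, so a dye effect particular to a gene and a true distance from the pool cannot be told apart. The samples are labelled as liver hepatocytes and the pool as made from livers. The part of that difference in these values was not tested.

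**Figure D2:**
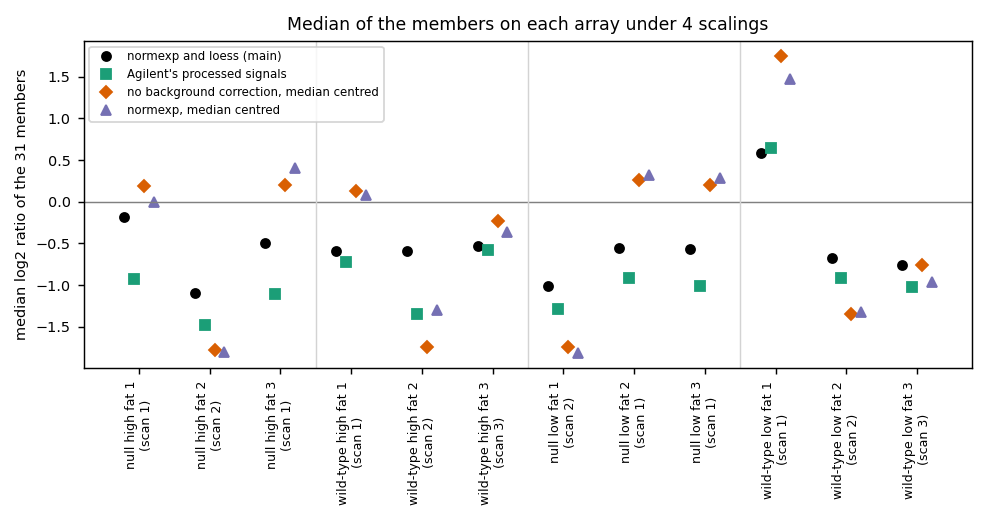
Median log2 ratio of the 31 members (vertical axis) on each of the 12 arrays, with the scan of each array, under 4 ways of scaling (symbols). Wild-type low-fat array 1 is the highest under each scaling, at 0.59 to 1.75, and the 4 arrays of scan 2 lie at or below -1.30 when loess is left out.

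The arrays of scan 2 were low in part. Null high-fat array 2, read in scan 2, was the lowest of its group in 26 of 31 members, against 45.8% of all genes. Null low-fat array 1, also read in scan 2, was the lowest of its group in 20 of 31, against 42% of all genes. Without loess, the member median of the 4 arrays of scan 2 was between -1.82 and -1.30 after normexp and median centring. The share of the scan in these values was not tested.

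The fibrillar collagens Col1a1, Col1a2 and Col3a1, but not Col5a1 and Col5a2, carried the largest distances between wild-type low-fat array 1 and the rest. Col1a1, a chain of type I collagen and the main collagen of scar tissue, stood at -2.05, -4.09 and -2.83 on null high-fat arrays and at -2.20, -2.90 and -1.98 on wild-type high-fat arrays. At low fat its values were -2.87, -3.03 and -2.43 on null arrays, against 0.88, -2.50 and -2.84 on wild-type arrays. Only wild-type low-fat array 1 was above the pool, and the null low-fat arrays overlapped with its 2 companions. On each array 10 spots of this Col1a1 probe were read, and their SD had a median of 0.34, a spread within arrays and not between samples. Wild-type low-fat array 1 lay 3.58 above the mean of the other 11. A second Col1a1 probe, above background on 11 arrays, gave -1.03 to 0.04 on the other 11 arrays and 1.56 on wild-type low-fat array 1. The probes therefore differ in their distance from the pool but not in which array was highest.

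Col1a2, the partner chain in type I collagen, was at -0.94, -2.50 and -1.05 on null high-fat arrays and at -0.90, -1.94 and -0.75 on wild-type high-fat arrays. It was at -1.72, -1.87 and -1.58 on null low-fat arrays, against 1.32, -1.95 and -1.21 on wild-type low-fat arrays. Type III collagen, Col3a1, was at -1.65, -2.75 and -1.56 on null high-fat arrays and at -1.27, -2.46 and -1.43 on wild-type high-fat arrays. Both genes repeated the order of Col1a1, with null high-fat array 2 at the bottom and wild-type low-fat array 1 alone above the pool. At low fat Col3a1 was at -2.20, -2.35 and -1.66 on null arrays, against 0.77, -2.25 and -2.04 on wild-type arrays. The type V chains Col5a1 and Col5a2, which start type I fibrils, had narrower ranges. On the other 11 arrays Col5a1 ran from -1.05 to -0.29 and Col5a2 from -1.66 to -0.05, and wild-type low-fat array 1 was at 0.21 and 1.07.

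The channels show which colour carried the difference. Their intensities were rebuilt from the loess ratios and the mean brightness of each spot, so they are not separate from those ratios. The sample intensity of Col1a1 was 12.12 (log2) on wild-type low-fat array 1 and 7.46 to 8.97 on the other 11 arrays, while the reference intensity ran from 10.62 to 11.55 over all 12. For Col1a2 the sample intensity was 11.95 on that array and 8.56 to 9.51 on the others, with a reference between 9.92 and 11.19. For Col3a1 it was 12.79 on that array and 9.40 to 10.54 on the others, with a reference between 11.49 and 12.56. In these genes the array differed in the sample channel, and its reference lay inside the range of the other references. Timp1 showed the opposite picture, with a sample intensity of 9.64 on wild-type low-fat array 1, inside the 9.42 to 10.26 of the other arrays.

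**Figure D3:**
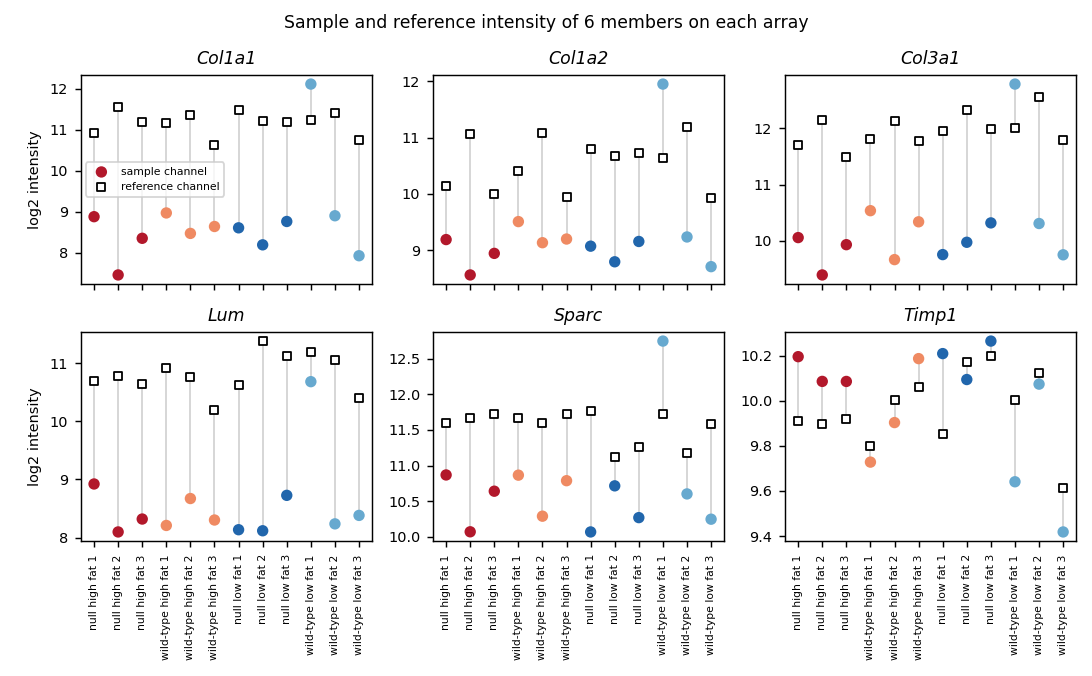
Log2 intensity (vertical axes) of the sample channel (filled circles, coloured by group) and of the reference channel (open squares) for 6 members on the 12 arrays (horizontal axis). For Col1a1, Col1a2, Col3a1, Lum and Sparc the sample of wild-type low-fat array 1 is the brightest of all samples, and for Timp1 it is not.

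Promoter sequences are shown for 3 members that peaked on that array and 2 that did not, so that their letters can be set side by side. They come from RefSeq (build GRCm38.p6), give the 250 bases before the start of the gene on its own strand, 5′ to 3′, and are in lower case. Capitals mark 3 motifs on either strand, which do not overlap here: the CCAAT box, the GC box and the TATA box, spelled out after the sequences. The windows are chr6:4505368-4505617 (+) for Col1a2, chr1:45311288-45311537 (+) for Col3a1, chr11:55420081-55420330 (-) for Sparc, chr19:34255374-34255623 (-) for Acta2 and chrX:20869916-20870165 (+) for Timp1.
Col1a2: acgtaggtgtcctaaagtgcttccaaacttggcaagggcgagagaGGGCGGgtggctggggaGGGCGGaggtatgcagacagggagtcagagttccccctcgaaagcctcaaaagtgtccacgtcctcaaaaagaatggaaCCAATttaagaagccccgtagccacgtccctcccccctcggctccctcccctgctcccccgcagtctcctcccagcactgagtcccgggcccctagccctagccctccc
Col3a1: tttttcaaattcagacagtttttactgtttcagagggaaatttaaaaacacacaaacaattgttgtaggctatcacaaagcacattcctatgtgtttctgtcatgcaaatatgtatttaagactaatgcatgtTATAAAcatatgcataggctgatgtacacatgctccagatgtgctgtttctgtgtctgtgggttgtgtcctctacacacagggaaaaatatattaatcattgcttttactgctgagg
Sparc: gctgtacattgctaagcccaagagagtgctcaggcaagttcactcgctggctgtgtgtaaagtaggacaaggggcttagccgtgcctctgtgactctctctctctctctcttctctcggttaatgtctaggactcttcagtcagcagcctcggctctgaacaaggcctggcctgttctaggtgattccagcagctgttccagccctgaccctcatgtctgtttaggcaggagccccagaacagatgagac
Acta2: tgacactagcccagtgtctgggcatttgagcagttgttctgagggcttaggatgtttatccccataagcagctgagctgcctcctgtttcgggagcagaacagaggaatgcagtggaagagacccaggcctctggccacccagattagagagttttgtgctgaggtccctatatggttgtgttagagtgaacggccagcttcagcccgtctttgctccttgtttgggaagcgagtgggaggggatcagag
Timp1: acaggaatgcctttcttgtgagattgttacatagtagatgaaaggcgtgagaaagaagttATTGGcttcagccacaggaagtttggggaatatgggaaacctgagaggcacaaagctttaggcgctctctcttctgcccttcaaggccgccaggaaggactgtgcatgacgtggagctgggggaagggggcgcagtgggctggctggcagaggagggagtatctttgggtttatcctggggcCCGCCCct

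Of the 35 members, 22 had a window in the RefSeq table. A gene counted if any of its windows matched, while the shares of all windows are of single windows, so these shares are not strictly alike. The letters CCAAT were found in the windows of 7 of these 22 genes (31.8%), against 33.8% of all 32851 windows. GGGCGG was found in 12 of 22 (54.5%), against 32.7% of all windows, and TATAAA in 3 of 22 (13.6%), against 12.4%. A CArG box by its strict pattern (CC, then only A or T, then GG) was in 0 of the 22 and in 1.47% of all windows. Variants with a G or C in the middle were not searched for, so the count does not show that any window, that of Acta2 included, lacks them. Col1a2 held CCAAT and GGGCGG, and so did Timp1, which did not share its array pattern. Col3a1, which did share it, held neither. These matches describe letters only.

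The basement membrane collagens split. Col4a1 and Col4a2, neighbouring genes for the chains of type IV collagen, ran from -1.68 to -0.18 and from -1.22 to -0.16 on the other 11 arrays, and were at 1.05 and 0.66 on wild-type low-fat array 1. Second probes of both genes were also highest there, at 0.95 and 0.13. Col15a1, a collagen of the basement membrane zone, ran from -1.36 to -0.13 on the other arrays and was at 0.18 on that one. Col18a1, the source of endostatin and a collagen that hepatocytes also express, followed another order. It was at -0.20, -0.04 and -0.14 on null high-fat arrays and at -0.20, -0.36 and -0.37 on wild-type high-fat arrays. Its low-fat values were 0.26, 0.41 and 0.18 on null arrays, against -0.06, 0.42 and -0.45 on wild-type arrays. Null low-fat arrays thus lay above all null high-fat arrays, and they overlapped with the wild-type low-fat arrays. A second Col18a1 probe did not share this order, with 1.29, -0.20 and 1.52 on null high-fat arrays, against -0.01, 1.62 and 0.96 on null low-fat arrays, which overlapped.

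Among the other collagens, Col6a1 and Col6a2, chains of the beaded filaments of type VI collagen, ran from -1.75 to -0.19 and from -0.99 to -0.06 on the other 11 arrays, and were at 0.96 and 0.80 on wild-type low-fat array 1. Col14a1, a collagen that sits on the surface of fibrils, ran from -1.04 to 0.12 and was at 0.44 on that array.

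The cytoskeletal markers were less uniform than the collagens. Acta2, the smooth muscle actin that marks activated stellate cells, was at 0.06, -0.27 and -0.05 on null high-fat arrays and at -0.48, -0.59 and -0.10 on wild-type high-fat arrays. At low fat it was at -1.11, 0.52 and -0.42 on null arrays, against 0.50, -0.34 and -0.26 on wild-type arrays, so the groups overlapped fully. A second Acta2 probe placed null low-fat array 1 at 0.44, the highest of its 12 values, where the first probe had its lowest, so the actin level of that array is uncertain. Tagln, the actin-binding protein transgelin of smooth muscle, was at -0.27, -0.98 and -0.85 on null low-fat arrays, against 0.05, -0.24 and -0.02 on wild-type low-fat arrays. These did not overlap, by a narrow margin, and a second Tagln probe gave -0.20, 0.08 and 0.13 on the null arrays, against 0.08, 0.14 and -0.67 on the wild-type arrays, which did overlap. Vim, vimentin, the intermediate filament of mesenchymal cells, ran from -1.84 to -0.78 on the other 11 arrays and was at 0.67 on wild-type low-fat array 1. Des, desmin, an intermediate filament of rodent stellate cells, lay between -0.46 and 0.10 on all 12 and close to background.

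In the signalling group, the ligand Tgfb1 ran from -0.72 to 0.19 on the other 11 arrays and was at 0.59 on wild-type low-fat array 1, with an SD over its 10 spots of 0.15 (median over arrays). Tgfbi, a matrix protein induced by TGF-beta, was the member most often above the pool, with values from -0.37 to 0.86 on the other 11 arrays and 1.33 on that array. Ctgf (now Ccn2), a secreted target of TGF-beta, had a pattern of its own. It was at -1.39, -1.24 and -2.00 on null high-fat arrays and at -1.17, -0.58 and -0.77 on wild-type high-fat arrays. At low fat it was at 0.15, -1.74 and -0.86 on null arrays, against -0.97, -0.68 and -1.24 on wild-type arrays. All null high-fat arrays were below all wild-type high-fat arrays. The low-fat groups overlapped, with or without null low-fat array 1, which was the highest of the low-fat arrays. The receptor Pdgfra ran from -1.09 to -0.09 on the other 11 arrays and was at 0.58 on wild-type low-fat array 1. Pdgfrb, the receptor through which PDGF acts on stellate cells, was at -1.42, -1.93 and -2.17 on null high-fat arrays and at -1.78, -1.60 and -1.40 on wild-type high-fat arrays. It was at -1.42, -1.19 and -1.64 on null low-fat arrays, against -0.04, -0.46 and -1.74 on wild-type low-fat arrays, so 2 of the wild-type low-fat arrays were high and the third was not.

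Of the small leucine-rich proteoglycans, which bind collagen fibrils, Lum lay below the pool on all 12 arrays. It was at -1.78, -2.69 and -2.32 on null high-fat arrays and at -2.72, -2.10 and -1.89 on wild-type high-fat arrays. Its low-fat values were -2.49, -3.26 and -2.40 on null arrays, against -0.51, -2.82 and -2.02 on wild-type arrays. Dcn, decorin, was at -0.25, -1.005 and -0.33 on null high-fat arrays and at -0.05, -0.68 and 0.07 on wild-type high-fat arrays. At low fat Dcn was at -1.02, -0.69 and -0.89 on null arrays, against 1.24, -0.67 and 0.13 on wild-type arrays. The null low-fat arrays all lay below the wild-type ones, but null array 2 and wild-type array 2 nearly touched. Bgn, biglycan, ran from -1.06 to -0.03 on the other 11 arrays and was at 0.82 on wild-type low-fat array 1. Sparc, a secreted collagen-binding protein, ran from -1.69 to -0.41 on the other 11 and was at 1.02 on that array. Its second probe was also highest there, at -0.54, but only narrowly, with -0.67 on wild-type low-fat array 2.

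Fibronectin, Fn1, which hepatocytes secrete into plasma and mesenchymal cells lay down as matrix, was one of the 5 that did not peak on wild-type low-fat array 1. It was at 0.78, -0.02 and 1.00 on null high-fat arrays and at 0.35, -0.70 and -0.23 on wild-type high-fat arrays. At low fat it was at -0.00, 1.25 and 0.72 on null arrays, against 1.10, -0.40 and -0.76 on wild-type arrays. Without wild-type low-fat array 1 the null low-fat arrays lay above the others of the wild type. The deposited files hold 3 probes of Fn1 (chromosome 1), each 60 bases long and given 5′ to 3′ in lower case with nothing marked, because they disagree.
A_51_P100856: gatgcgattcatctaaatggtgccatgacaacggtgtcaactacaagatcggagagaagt
A_52_P11817: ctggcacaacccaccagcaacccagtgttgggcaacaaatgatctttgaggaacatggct
A_52_P299974: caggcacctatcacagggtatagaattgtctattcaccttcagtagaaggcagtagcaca

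The second of these Fn1 probes gave 0.33, -0.40 and 1.10 on null high-fat arrays and 0.39, -0.56 and -0.01 on wild-type high-fat arrays. It gave -0.47, 1.02 and 0.42 on null low-fat arrays, against 0.77, -1.39 and -0.45 on wild-type low-fat arrays, close to the order of the first probe. The third gave -0.24, -1.12 and -0.64 on null low-fat arrays, against -0.85, -0.46 and 0.15 on wild-type low-fat arrays, an order that differs from both. At high fat it gave -0.13, -0.47 and -0.50 on null arrays, against -0.73, -0.07 and 0.15 on wild-type arrays, so it did not place null arrays higher at either diet. Over the 10 spots of the first probe the SD had a median of 0.37.

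Loxl1, which crosslinks elastin and collagen, ran from -1.62 to -0.15 on the other 11 arrays and was at 0.62 on wild-type low-fat array 1. The gelatinase Mmp2 ran from -1.18 to -0.04 on the other 11 arrays and was at 0.57 on that array. Timp3, an inhibitor of metalloproteinases that stays bound to matrix, ran from -1.42 to -0.47 on the other 11 and was at 0.34 on that array. Timp2, which inhibits and also helps to activate Mmp2, was at -0.82, -1.58 and -1.29 on null high-fat arrays and at -1.19, -1.01 and -0.37 on wild-type high-fat arrays. It was at -1.37, -1.81 and -1.90 on null low-fat arrays, against -0.04, -1.17 and -0.76 on wild-type low-fat arrays, and these groups did not overlap. Timp1, the inhibitor that activated stellate cells secrete, was the only member at its lowest on wild-type low-fat array 1. It was at 0.28, 0.19 and 0.17 on null high-fat arrays and at -0.07, -0.10 and 0.12 on wild-type high-fat arrays, without overlap. Its low-fat values were 0.35, -0.08 and 0.06 on null arrays, against -0.36, -0.05 and -0.19 on wild-type arrays, which overlapped.

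The first comparison of the design asked how livers labelled null differed from wild-type livers at low fat. In limma's fit over all 12 arrays, 0 of 31 members passed an adjusted p of 0.05, as did 0.0201% of all genes. By sign, 27 members were lower and 4 higher in null livers, where 50.9% of all genes were lower, and the median change was -0.37 against -0.0055 for all genes. At an unadjusted p under 0.05 there were 3 members, all lower, against 7.22% of all genes. Timp2 differed by -1.04 (SE 0.32, limma adjusted p = 0.472), Dcn by -1.10 (SE 0.41, adjusted p = 0.569) and Tagln by -0.63 (SE 0.23, adjusted p = 0.565), with 3 arrays in each group. These were also the 3 members whose null arrays all lay below the wild-type arrays, as did 4.55% of all genes, and 0 lay above (4.8%). Larger differences with larger errors were those of Col1a1 at -1.29 (SE 0.83) and Col1a2 at -1.11 (SE 0.71).

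This comparison rested on wild-type low-fat array 1. Without it 13 members were lower and 18 higher in null livers, where 49.2% of all genes were lower. Without null low-fat array 1 instead, 21 members were lower and 10 higher, where 49.7% of all genes were lower, with a median of -0.22. The median change of the members without wild-type low-fat array 1 was 0.08, against 0.0070 for all genes, and 0 members passed limma's adjusted p, as did 0.0872% of all genes. Col1a1 then differed by -0.11 (SE 0.50), Col1a2 by -0.14 (SE 0.48) and Col3a1 by 0.08 (SE 0.42). At an unadjusted p under 0.05 stood 2 members, against 10.2% of all genes. They were Fn1 at 1.24 (SE 0.42, limma adjusted p = 0.354) and Timp2 at -0.73 (SE 0.30, limma adjusted p = 0.436). Null arrays then all lay above the wild-type arrays for Vim and Fn1 (11% of all genes) and below for Timp2, Dcn and Tagln (11.6%). Over 26 alternative settings with a test, Dcn, Timp2, Col1a1, Col1a2, Col15a1, Tgfb1, Pdgfrb and Sparc stayed lower, as did Col6a2 in the 25 that measured it, and Fn1, Timp1 and Col18a1 stayed higher in null livers, while Tagln turned to 0.03 in the sample channel alone. Within scan 1 the median of the members was -1.06 and 29 were lower, and within scan 2 it was -0.16 and 20 were lower. Fn1 was at -0.12 within scan 1 and Col18a1 at -0.16 within scan 2, so neither kept its sign in both scans, whereas Dcn and Timp2 were lower in each. In scan 1 null and wild-type low-fat arrays lay on different slides, so slide and genotype cannot be told apart there.

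**Figure D4:**
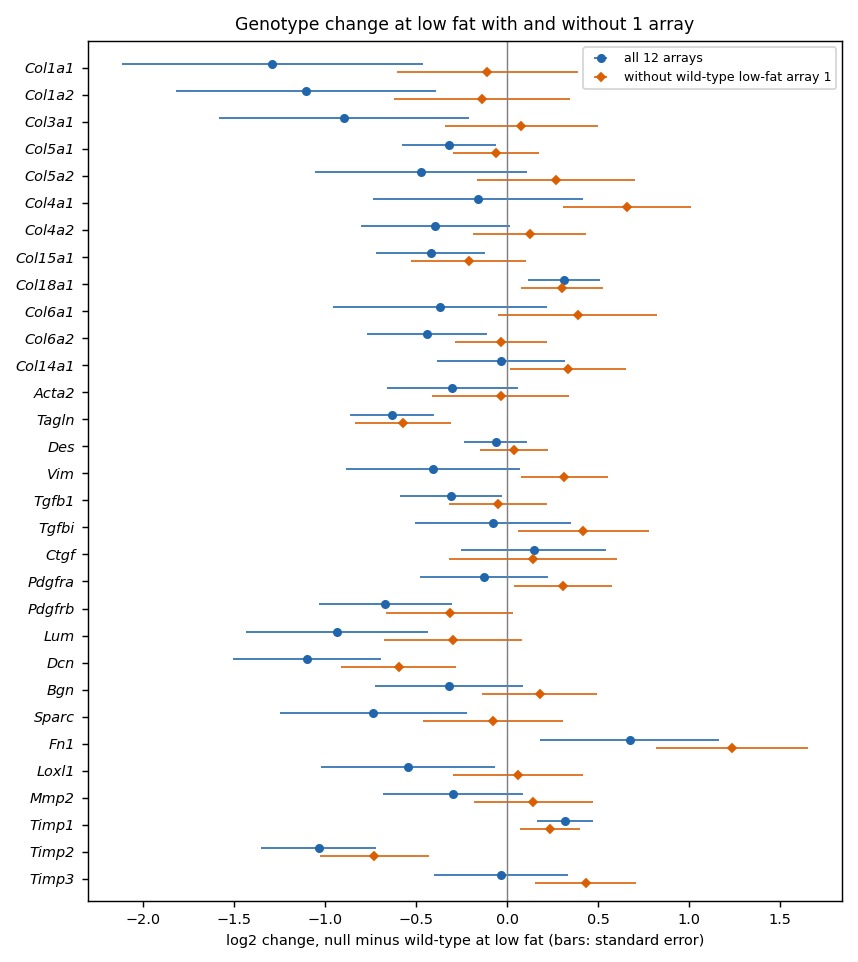
Log2 change of each member, null minus wild-type at low fat (horizontal axis, bars are the standard error of limma's fit), over all 12 arrays (circles) and without wild-type low-fat array 1 (diamonds). Col1a1 is at -0.11 without that array and at -1.29 with it, Col4a1 turns to 0.66, and Fn1, Timp2, Dcn, Tagln and Timp1 keep their side.

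The second comparison asked the same of livers at high fat. In limma's fit 0 of 31 members passed the adjusted p, as did 0.0134% of all genes, and 0 had an unadjusted p under 0.05, against 2.56% of all genes. By sign 22 were lower and 9 higher in null livers, where 49.3% of all genes were lower, with a median change of -0.12 against 0.0028 for all genes. Groups did not overlap for Ctgf, lower in null livers by -0.70 (SE 0.40, limma adjusted p = 1.00), and Timp1, higher by 0.23 (SE 0.15, limma adjusted p = 1.00), where 4.04% of all genes lay below and 3.72% above. Fn1 differed by 0.78 (SE 0.49) with overlapping arrays. Ctgf stayed lower, and Timp1 and Fn1 stayed higher, in each of the 26 settings with a test, but the third Fn1 probe alone did not lie higher in null livers, and with the mean of its probes Fn1 was at 0.34 (SE 0.30). Null high-fat array 2 set the sign of the rest: without it 6 members were lower and 25 higher, where 44.8% of all genes were lower, the median was 0.14, and 0 had an unadjusted p under 0.05, against 3.01%. Within scan 1 the median was 0.08 with 11 members lower, and within scan 2 it was -0.49 with 25 lower.

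The diet comparison in wild-type livers had the same dependence as the first. Over all arrays 0 of 31 members passed the adjusted p in limma's fit, as did 0.00671% of all genes, and 27 were lower and 4 higher on high fat, where 48.8% of all genes were lower. The median was -0.23, against 0.0062 for all genes. Pdgfrb had the only unadjusted p under 0.05, against 4.03% of all genes, at -0.85 (SE 0.37, limma adjusted p = 1.00). Wild-type arrays with the same number shared a slide and a scan, and with the number as a block over the 6 wild-type arrays 0 members had an unadjusted p under 0.05 in limma's fit and 0 passed the adjusted p. Arrays of the 2 diets overlapped for every member, while 3.52% of all genes lay above and 3.7% below. Without wild-type low-fat array 1 the signs turned, with 7 members lower and 24 higher on high fat, where 47.5% of all genes were lower, and a median of 0.14 against 0.016 for all genes. Then 0 members passed limma's adjusted p and 0 an unadjusted p under 0.05, against 4.59% of all genes. All 3 high-fat arrays then lay above the other low-fat arrays for 8 members, against 9.56% of all genes: Col4a1, Col6a1, Des, Tgfb1, Pdgfra, Bgn, Loxl1 and Mmp2. For 0 members they all lay below, against 9.44% of all genes. The largest of these was Col4a1 at 0.76 (SE 0.35, limma adjusted p = 0.989). Pdgfrb kept its sign there, at -0.49 (SE 0.35). Within scan 1 the median of the members was -1.16, within scan 2 it was 0.02 and within scan 3 it was 0.25, each from 1 array per diet.

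In livers labelled null the diet comparison had about as many members higher as lower. In limma's fit 0 of 31 passed the adjusted p, as did 0.00671% of all genes, and 0 had an unadjusted p under 0.05, against 1.9%. By sign 15 were higher and 16 lower on high fat, where 45.4% of all genes were lower, with a median of -0.0044 against 0.019 for all genes. Col18a1 was the 1 member whose arrays did not overlap, lower on high fat by -0.41 (SE 0.20, limma adjusted p = 1.00), against 2.54% of all genes lower and 2.32% higher. Its second probe overlapped, and with the mean of both Col18a1 probes the change was -0.20 (SE 0.33). Ctgf differed by -0.73 (SE 0.40). Without null high-fat array 2 the median was 0.25 and 27 members were higher, where 43.4% of all genes were lower. Without null low-fat array 1 the median was -0.14.

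The interaction asks whether the response to high fat differed between null and wild-type livers. It shares all 4 groups with the comparisons above, so the same arrays set it. In limma's fit 0 members passed the adjusted p, as did 0% of all genes, and 0 had an unadjusted p under 0.05, against 0.899%. The median was 0.27 with 27 members above 0, where 47.9% of all genes were below, and it was -0.15 with 24 members below 0, against 48.9% of all genes, without wild-type low-fat array 1. Without that array 0 members had an unadjusted p under 0.05, against 1.16% of all genes. Lum had the largest value at 0.91 (SE 0.71) and Ctgf the lowest at -0.85 (SE 0.56).

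The standard error of a change had a median of 0.40 over the members, against 0.23 over all genes. Without wild-type low-fat array 1 the median standard error of the members was 0.32 in the low-fat comparisons.

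Other genes of the same pathways were read from 7 lists that hold no member. In null against wild-type livers at low fat, 0 genes of these lists passed limma's adjusted p in either direction. Among 13 genes that process collagen, 5 were higher and 8 lower, with Crtap, part of the prolyl 3-hydroxylation complex, at -0.74 (SE 0.31) and the crosslinker Loxl2 at -0.88 (SE 0.40). Among 14 laminin and basement membrane genes 5 were higher and 9 lower, and Nid1, the linker nidogen, was at -0.87 (SE 0.53). Of 19 other matrix glycoproteins 5 were higher and 14 lower, and Spp1, osteopontin, was at -1.39 (SE 0.48). Of 14 other proteases and inhibitors 5 were higher and 9 lower, and the inhibitor Serpine2 was at 1.06 (SE 0.39). Of 21 genes of the TGF-beta and PDGF pathways 7 were higher and 14 lower, with the activin subunit Inhba at 0.92 (SE 0.22) and the ligand Pdgfa at -0.79 (SE 0.24). Of 15 matrix receptors 5 were higher and 10 lower, with the proteoglycan Sdc4 at 1.13 (SE 0.23). Of 9 other collagens 5 were higher and 4 lower, with Col27a1, a fibrillar collagen of cartilage, at 0.47 (SE 0.21).

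Several of these values also rested on wild-type low-fat array 1. Without it Nid1 was at -0.24 (SE 0.44), Loxl2 at -0.45 (SE 0.34), Crtap at -0.46 (SE 0.31) and Spp1 at -0.74 (SE 0.32). Inhba at 0.99 (SE 0.25), Pdgfa at -0.69 (SE 0.26), Sdc4 at 1.23 (SE 0.26) and Serpine2 at 1.10 (SE 0.45) moved less, and Col27a1 was at 0.33 (SE 0.23). Without that array 8 of 13 collagen processing and 9 of 14 laminin and basement membrane genes were higher in null livers. So were 11 of 19 other matrix glycoproteins, 13 of 21 TGF-beta and PDGF genes, 8 of 15 matrix receptors and 6 of 9 other collagens. Of the other proteases and inhibitors 6 were higher and 8 lower. In that fit 0 genes of the 7 lists passed limma's adjusted p.

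Of these pathway lists 6 had their highest median on the same array. The collagen processing genes had a median of 0.45 on wild-type low-fat array 1, against -0.85 to -0.23 on the other 11 arrays. The laminin and basement membrane list was at 0.17 there, against -0.71 to -0.06 on the others, and the other matrix glycoproteins at 0.12, against -0.56 to -0.11. The other proteases and inhibitors were at 0.24 there, against -0.49 to -0.00, the TGF-beta and PDGF genes at 0.09, against -0.60 to -0.05, and the matrix receptors at 0.08, against -0.51 to -0.05. Of the 7 lists the other collagens alone did not share it, at -0.09 there and between -0.24 and 0.08 elsewhere.

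Markers of some other cell types, namely Kupffer cells, portal fibroblasts and endothelium, moved in part with the same array. The median of 14 Kupffer cell and macrophage markers was 0.13 on wild-type low-fat array 1 and -1.48 to -0.07 on the other 11. Of the 14, 9 were highest on that array, against 17.4% of all genes, the share to set beside each such count below. Their summed intensity (log2) was 14.59 to 14.88 in null high-fat, 13.78 to 14.66 in wild-type high-fat, 14.44 to 14.68 in null low-fat and 13.83 to 15.95 in wild-type low-fat arrays. The scavenger receptor Marco was at 0.16 on that array, against -3.82 to -0.39 on the other 11. Clec4f and Timd4 of the same list did not peak there. They reached 0.19 and 0.47 on null low-fat array 2, against -0.08 and 0.09 on wild-type low-fat array 1. Of 11 measured portal fibroblast markers 7 were highest there, with a median of -0.02 against -1.32 to -0.14, and Gli1 was not measured. Their summed intensity was 10.73 to 11.17 in null high-fat, 10.88 to 11.25 in wild-type high-fat, 10.70 to 11.10 in null low-fat and 11.04 to 12.10 in wild-type low-fat arrays. Of 15 endothelial markers 9 were highest there, with a median of 0.38 against -0.57 to 0.18. Their summed intensity was 13.70 to 14.03 in null high-fat, 13.43 to 14.00 in wild-type high-fat, 13.86 to 14.22 in null low-fat and 13.62 to 14.28 in wild-type low-fat arrays. The part of these cells in the members' values was not tested.

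The markers of quiescent stellate cells were less marked, with 4 of 13 highest on that array, a median of 0.14 against -0.38 to -0.05, and Gfap not measured. Their summed intensity was 14.01 to 14.13 in null high-fat, 13.93 to 14.16 in wild-type high-fat, 13.95 to 14.19 in null low-fat and 14.01 to 14.38 in wild-type low-fat arrays. Of 9 smooth muscle markers 2 were highest on wild-type low-fat array 1 and of 9 bile duct markers 3, against 17.4% of all genes. Of 9 lymphocyte markers it was 1, of 4 adipocyte markers 0 and of 3 red blood cell markers 1. The smooth muscle median was highest on that array, at 0.11 against -0.30 to 0.01, but their summed intensity reached 11.91 in wild-type low-fat and 12.17 in null low-fat arrays. That of the bile duct markers reached 12.04 in null high-fat, 11.98 in wild-type high-fat, 12.00 in null low-fat and 14.01 in wild-type low-fat arrays. Of 11 hepatocyte markers 2 were highest on wild-type low-fat array 1, and their median of 0.53 lay within the -0.20 to 0.71 of the other arrays. At low fat 5 of the 13 quiescent stellate markers were higher and 8 lower in null than in wild-type livers, with a median change of -0.09, and 9 were higher and 4 lower without wild-type low-fat array 1. At an unadjusted p under 0.05 stood 1 gene each way, against 7.22% of all genes, namely Reln at 0.66 (SE 0.30, limma adjusted p = 0.690) and Pparg. Pparg, kept in the stellate list as a gene of resting cells, differed between null and wild-type livers at low fat by -1.99 (SE 0.30, limma adjusted p = 0.0760), with -1.78, -2.15 and -1.92 on null arrays, against 0.04, -0.52 and 0.59 on wild-type arrays. The null arrays all lay below the wild-type ones, wild-type low-fat array 1 included, as they did for 4.55% of all genes.

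**Figure D5:**
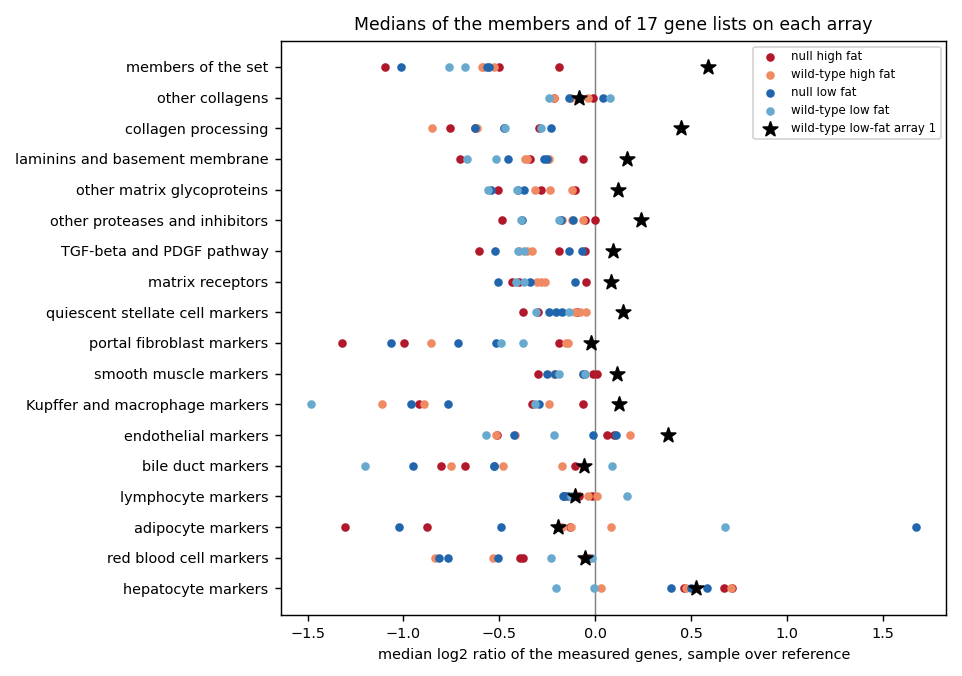
Median log2 ratio (horizontal axis) of the measured genes of the member set and of 17 other gene lists (rows) on each of the 12 arrays; circles are coloured by group and the star is wild-type low-fat array 1. The star lies right of all circles for the members (0.59), the collagen processing genes (0.45) and the Kupffer cell markers (0.13), and inside the circles for hepatocyte markers (0.53).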

How the data were processed

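Liver RNA of 12 arrays was read in 2 colours. Per the file headers, the deposited intensity values are spot and local background brightness from Agilent Feature Extraction 9.1.3.1, which also gave a processed intensity, a log10 ratio and 0 or 1 marks per spot. The authors' deposited log2 table of group comparisons equals differences of group means of those log10 ratios turned to log2 within 1e-06, and none of its values are printed. The submitters' processing notes name limma with no version, and no label or header gives the genome build of the array files. Promoter windows are in the build of the RefSeq table, GRCm38.p6.

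Here, limma 3.58.1 in R 4.3.3 applied normexp (offset 50) and loess within each array. Ratios are log2 of sample (Cy3) over reference (Cy5). Channel intensities, the summed intensities included, are not raw brightness. They were rebuilt from the loess ratio and the mean log2 brightness of both channels, after quantile normalization of that mean between arrays. The sample channel alone uses the same intensities. Spots with outlier marks were left out, spots of a probe were averaged, and each gene was read by its brightest measured probe. One mean per group was fitted to all 12 arrays with lmFit and eBayes, and p-values were adjusted by Benjamini-Hochberg over 14911 genes at a threshold of 0.05. The number of arrays limits the precision. The fit was tested on simulated data with independent noise, of the same spread on every array for a given gene. Those data held no scan effect and no outlying array, so the test does not bear on either. Every measured member is named by rule. Members, lists and alternatives were chosen with earlier results of these data known. Scan, slide, replicate number, scaling, probe choice and each left-out array were tried as alternatives. Over all groups 6 of 18 same-numbered pairs correlated over 0.1, and no pair with a null low-fat array did. Null high-fat array 1 correlated at 0.387 with wild-type low-fat array 1 and at -0.020 with wild-type high-fat array 1. Null high-fat array 2 correlated at 0.539 and 0.570 with wild-type low-fat and high-fat array 2. All of these shared slide and scan. Replicate numbers did pair the wild-type diet groups, whose 3 pairs correlated at 0.332, 0.337 and 0.463 and shared slide and scan.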

Additional observations from a re-analysis of the deposited data

How the results depend on the processing

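Of 30 settings tried, 27 gave a test, and 0 members passed limma's adjusted p in any of them, with a smallest adjusted p of 0.136 for null against wild-type at low fat. Leaving out 1 array at a time moved the median change of the members between -0.58 and 0.08 for null against wild-type at low fat, between -0.34 and 0.14 for the same at high fat, and between -0.48 and 0.14 for diet in wild-type livers. It moved between -0.14 and 0.25 for diet in null livers and between -0.15 and 0.49 for the interaction. Within scan 1 the median was -1.06 for genotype at low fat, -1.16 for diet in wild-type livers and 1.35 for the interaction, each resting on wild-type low-fat array 1. Within scan 2 it was -0.49 for genotype at high fat and -0.34 for the interaction, from 1 array per group. The number of members below the reference on the other 11 arrays, 22 after loess, was 4 without background correction and 3 with median centring. Tagln turned to 0.30 in null against wild-type livers at high fat in the sample channel alone. Sign changes with a value within 1 SE of 0 were not counted as reversed. The cause of these changes was not tested. With the replicate number as a block 0 members passed. Every group holds the same replicate numbers, so such a block cannot change a difference of group means. The medians of -0.37, -0.12, -0.23, -0.0044 and 0.27 were therefore fixed, and only the standard errors could move. With that block over the wild-type arrays alone, an alternative chosen after seeing the data, 0 members passed. The diet median of -0.23 was fixed there in the same way. Over all groups same-numbered arrays correlated between -0.583 and 0.570, and 5 arrays correlated best with their own number.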
